A study of Mus musculus with 10 samples.

Results

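Fmo1, Fmo2 and Fmo5, the flavin-containing monooxygenase (FMO) genes with the most counts in normal lung, are described here across lung squamous cell carcinoma (SCC) and normal lung of the mouse. They are 3 of the 24421 gene symbols in the deposited count table and were picked by name, with their levels in this comparison known, so their difference between the groups is given as a description without a test. The tested regions were 5 libraries of lung SCC from wild-type NIH Swiss mice treated with NTCU, a nitrosourea carcinogen, and the comparison regions were 5 libraries of normal lung from untreated wild-type NIH Swiss mice. All regions were laser-captured from formalin-fixed, paraffin-embedded sections before total RNA was sequenced. The labels give no age, no animal for a library and no NTCU dose, so regions that share an animal cannot be told from separate animals, and p-values measure the spread between these libraries and are too small if animals were shared.

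FMOs are enzymes of the endoplasmic reticulum membrane that bind FAD, take electrons from NADPH and use molecular oxygen to add an oxygen atom to soft nucleophiles, mostly nitrogen and sulfur atoms of drugs, dietary amines and thiols. FMO2 is the main form in the lung of most mammals, and FMO1 is the broad-specificity form that also turns hypotaurine into taurine. FMO5 is atypical in that it inserts oxygen next to carbonyl groups (Baeyer-Villiger oxidation) and has few of the usual FMO substrates.

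Fmo1 and Fmo2 are neighbours on chromosome 1, and Fmo5 lies on chromosome 3. In GENCODE M21 (GRCm38, the assembly of mm10), Fmo1 (ENSMUSG00000040181) spans bases 162829561 to 162866610 and Fmo2 (ENSMUSG00000040170) bases 162874317 to 162898726 on the minus strand of chromosome 1, next to each other between Fmo4 and Fmo6. Fmo5 (ENSMUSG00000028088) spans bases 97628804 to 97655282 on the plus strand of chromosome 3. No annotated gene overlaps any of these 3. The starts of the Fmo2 and Fmo5 coding sequences are shown because they hold a motif typical of FMOs and show how far the copies on the 2 chromosomes differ. Capitals mark the codons of the glycine motif that binds FAD, searched on the coding strand as glycine codons (GGN) at the start, after 1 further codon and after 2 more, in frame within the first 90 coding bases, where 3.41% of 21552 mouse coding sequences hold it. The sequences are coding bases 1 to 90, 5′ to 3′, from GENCODE M21 transcripts.
Fmo2: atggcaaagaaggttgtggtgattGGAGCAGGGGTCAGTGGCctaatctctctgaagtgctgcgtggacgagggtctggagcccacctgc
Fmo5: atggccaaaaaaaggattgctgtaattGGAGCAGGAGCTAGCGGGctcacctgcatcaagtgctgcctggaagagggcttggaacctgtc
Over their whole coding sequences the members were 62.0% (Fmo1 and Fmo2), 60.5% (Fmo1 and Fmo5) and 63.0% (Fmo2 and Fmo5) identical. The longest stretch that a pair of their transcripts share without a mismatch was 24 bases, between Fmo1 and Fmo5.

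Total counts ran from 1004105 to 3691806 in SCC and from 1457641 to 6817106 in normal lung. SCC 1, SCC 3 and SCC 4 stood apart by counts on chemosensory receptor genes, taken here as background, though use of these receptors in lung was not tested. This receptor signal was 3.26 to 3.52 CPM (counts per 1000000 counts of the library) per kb there, 0.419 and 0.592 in SCC 5 and SCC 2, and 0.0417 to 0.208 in normal lung. A background at that rate over a gene's length would make up 23.8% to 25.7% of all counts in SCC 1, SCC 3 and SCC 4, 3.06% and 4.32% in SCC 5 and SCC 2, and at most 1.51% in normal lung. SCC 3 and SCC 4 were the closest pair of libraries, at a chi-square of 2.93 per degree of freedom, so no pair differed by as little as counting noise. Squamous markers matched the tissue labels, since the summed level of 8 squamous and basal genes was 1033.8 to 7307.8 CPM in SCC and 6.56 to 30.9 CPM in normal lung, and Krt6a, Krt13 and Dsg3 had no counts in normal lung.

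Fmo1 was the member that differed most. It had 15.1, 26.5, 17.1, 24.9 and 0.817 CPM in SCC 1 to SCC 5, against 213, 185, 360, 316 and 290 CPM in normal 1 to normal 5. Every SCC library lay far below every normal library. The means were 16.9 ± 10.2 CPM in SCC and 273 ± 72.5 CPM in normal lung (SD, n = 5 each), a level 16.2-fold lower in SCC. The fitted log2 fold change was -4.17 (SE 0.53), and 14 of 13203 genes tested had a lower one. Fmo1 rested on 172 counts in SCC in all, against 4563 in normal lung. The background at the receptor rate would amount to 51.7%, 46.3% and 33.8% of the Fmo1 counts in SCC 1, SCC 3 and SCC 4, and to 5.33% in SCC 2. In SCC 5 there were 2 counts, fewer than that background. With the background subtracted the log2 fold change was -4.21, and when SCC 2 and SCC 5 stood for SCC alone it was -4.46.

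Fmo2 was the most abundant FMO of normal lung and was uneven in SCC. It had 88.6, 492, 43.5, 81.7 and 10.2 CPM in SCC 1 to SCC 5, against 746, 627, 1004.5, 737 and 595 CPM in normal 1 to normal 5. The groups did not overlap, but SCC 2 came close to normal lung, at 0.664 of its mean, while the other SCC libraries averaged 56.0 ± 36.4 CPM (SD, n = 4). The means were 143 ± 198 CPM in SCC and 742 ± 161 CPM in normal lung (SD, n = 5 each), 5.18-fold lower in SCC, or 13.3-fold lower without SCC 2. The fitted log2 fold change was -2.53 (SE 0.62), -3.90 without SCC 2 and -1.76 when SCC 2 and SCC 5 stood for SCC alone. The background at the receptor rate would be 15.0% to 30.9% of the Fmo2 counts in the other SCC libraries and 0.489% in SCC 2.

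Fmo5 differed least, and its groups overlapped. It had 195, 72.1, 84.2, 140 and 107 CPM in SCC 1 to SCC 5, against 281, 506, 136, 396 and 450 CPM in normal 1 to normal 5. SCC 1 and SCC 4 lay above normal 3, and the other 3 SCC libraries lay below every normal library. The means were 120 ± 49.6 CPM in SCC and 354 ± 147 CPM in normal lung (SD, n = 5 each), 2.96-fold lower in SCC, with a fitted log2 fold change of -1.71 (SE 0.42). It was -1.37 with the receptor background subtracted. Among all 13203 genes tested, 5.77% had every SCC library below every normal library and 8.81% above, while edgeR called 8.68% lower, 12.5% higher and 21.1% in either direction. These shares are the background for the members' differences, which were known when the members were chosen.

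**Figure D1:**
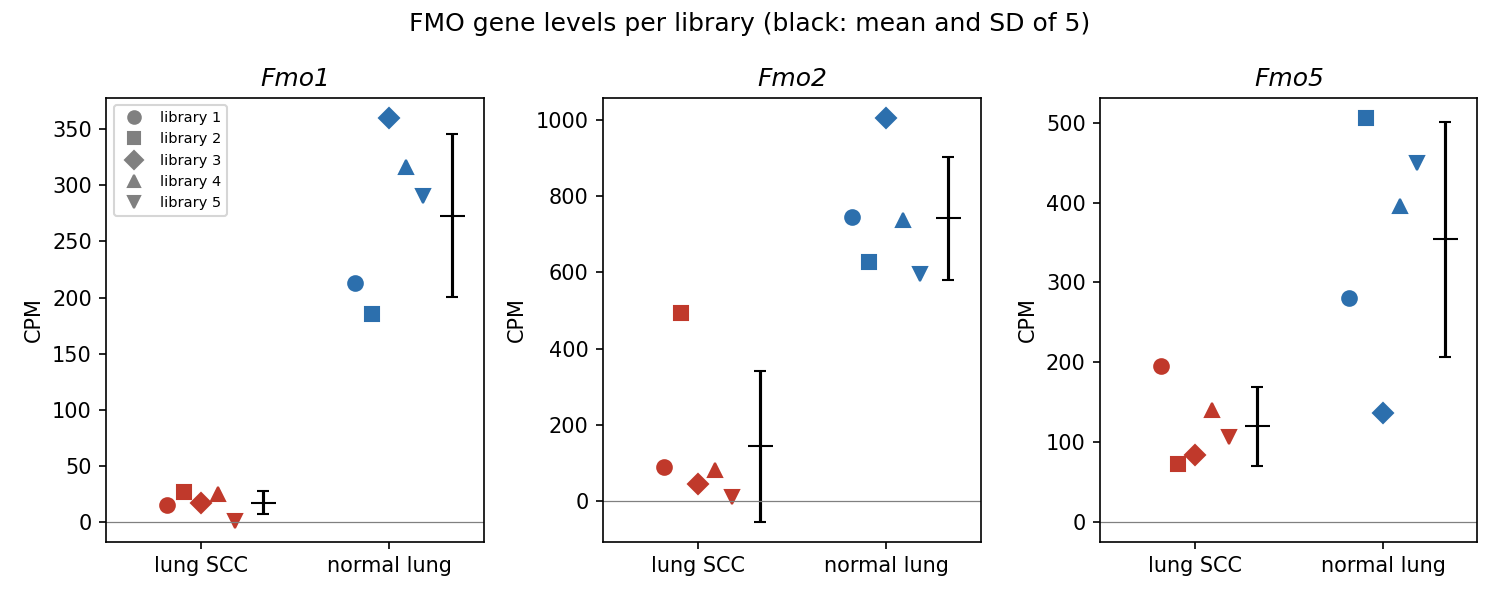
CPM of Fmo1, Fmo2 and Fmo5 in each library, lung SCC in red and normal lung in blue, with marker shapes for the libraries and a black mean with its SD over 5 libraries (an SD may reach below 0). Fmo1 is at most 26.5 CPM in SCC and at least 185 CPM in normal lung, SCC 2 stands alone for Fmo2 at 492 CPM, and normal 3 lies among the SCC libraries for Fmo5.

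Levels of different genes were compared as CPM per kb of the longest transcript. In SCC, Fmo2 had 35.2 ± 48.6, Fmo5 23.0 ± 9.54 and Fmo1 7.07 ± 4.29 CPM per kb (SD, n = 5). In normal lung, Fmo2 had 183 ± 39.6, Fmo1 114 ± 30.4 and Fmo5 68.1 ± 28.3 CPM per kb (SD, n = 5). Fmo5 was the highest member in SCC 1, SCC 3, SCC 4 and SCC 5 and Fmo2 in SCC 2, while Fmo2 was the highest in each normal library. The order of Fmo1 and Fmo5 in normal lung rested on the length used, because Fmo5 has a long 3′ UTR (longest transcript 5197 bases, coding part 1599). Per kb of coding sequence Fmo5 had 221 ± 92.1 and Fmo1 171 ± 45.4 CPM in normal lung (SD, n = 5), within the spread of each other. Among 24068 genes with a length, Fmo1 stood between the 29.4th and the 78.1th percentile of level in SCC libraries and between the 97.8th and the 99.0th in normal lung.

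The make-up of the summed level of the 3 genes differed too. Fmo1, Fmo2 and Fmo5 together had 299, 591, 145, 247 and 118 CPM in SCC 1 to SCC 5, against 1239.9, 1318.6, 1500.8, 1449.7 and 1335.0 CPM in normal 1 to normal 5. The sum was at 280 ± 189 CPM in SCC and 1368.8 ± 105 CPM in normal lung (SD, n = 5 each), and the groups did not overlap. Fmo5 took 12.2% of that sum in SCC 2 and 56.9% to 90.6% in the other SCC libraries, against 9.08% to 38.4% in normal lung. Fmo2 took 83.3% in SCC 2 and 8.68% to 33.1% in the other SCC libraries, against 44.6% to 66.9% in normal lung. Fmo1 took 6.42% ± 4.49 in SCC and 19.8% ± 4.04 in normal lung (SD, n = 5 each). There were 18.6 counts of Fmo2 for each count of Fmo1 in SCC 2, and 2.55 to 12.5 in the other SCC libraries, against 2.05 to 3.50 in normal lung.

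**Figure D2:**
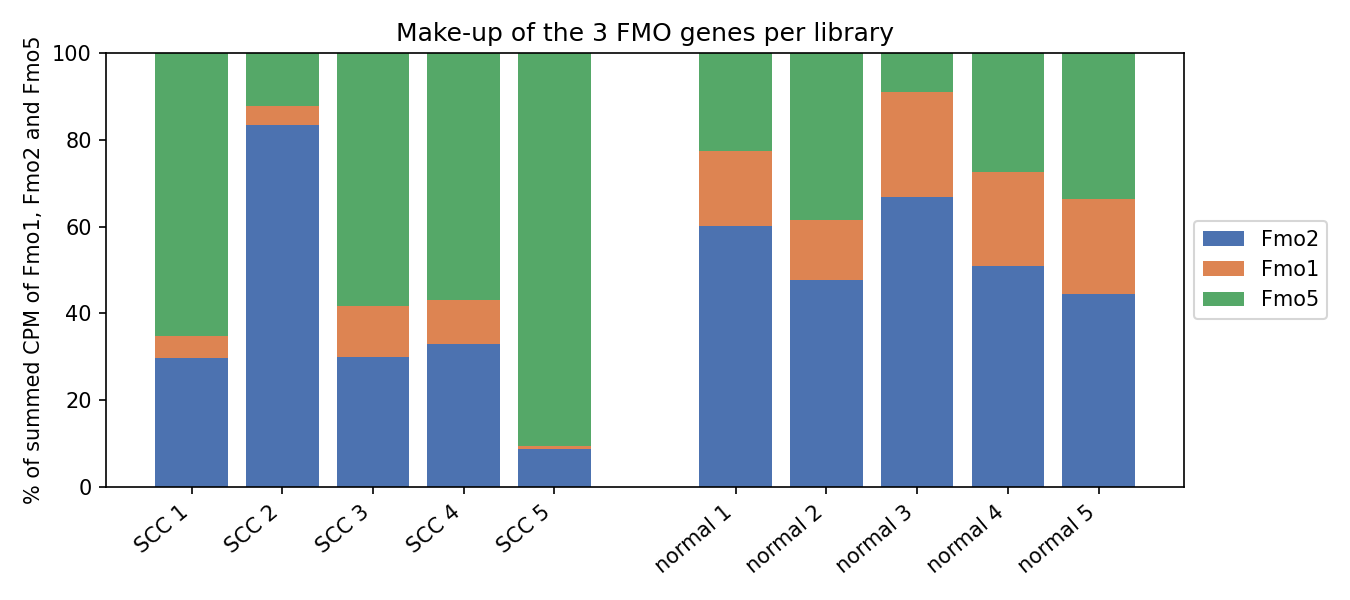
Share of the summed CPM of Fmo1, Fmo2 and Fmo5 taken by each gene, in percent, 1 bar per library, lung SCC on the left and normal lung on the right. Fmo2 (blue) and Fmo1 (orange) fill most of each normal bar, Fmo5 (green) is the largest part in SCC 1, SCC 3, SCC 4 and SCC 5, and Fmo2 takes 83.3% in SCC 2.

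Fmo4, Fmo6, Fmo9, Gm4846 and Gm4847, other genes of the family, were sparse, and none of the 5 passed the filter on low counts, so they were not tested. Fmo6 had 6, 92, 6, 5 and 0 counts in SCC 1 to SCC 5, against 2 counts over all of normal lung. Fmo4, Fmo9, Gm4846 and Gm4847 had 30, 38, 38 and 44 counts over the SCC libraries, against 10, 1, 3 and 8 over normal lung, and the receptor rate alone would give 43.5, 49.7, 28.3 and 48.8 counts over the SCC libraries. These 4 genes were thus near or under that background in SCC as a whole.

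SCC 2 was high for some genes of this stretch of chromosome 1. Its Fmo2 level was 8.79 times the mean of the other 4 SCC libraries. For Fmo6, the neighbour of Fmo2, SCC 2 had 92 counts, of which the receptor rate would give 4.02%, while the 6, 6 and 5 counts of SCC 1, SCC 3 and SCC 4 were close to or under that background (97.6%, 169% and 120% of them) and SCC 5 had none. Fmo1, on the other side of Fmo2, had 26.5 CPM in SCC 2, against 15.1 to 24.9 CPM in SCC 1, SCC 3 and SCC 4 and 0.817 CPM in SCC 5. Fmo4, Mroh9 and Myoc had 4, 8 and 7 counts in SCC 2, with the background at 147%, 80.8% and 64.8% of them, so their levels there are not compared. Prrc2c, which lies beyond Fmo4, was at 1.62 times the mean of the other SCC libraries. Vamp4, further out, had 185 counts in SCC 2 (background 3.25%), or 50.1 CPM, 4.09 times the mean of the other SCC libraries. Among SCC libraries a high value in SCC 2 was thus not limited to the FMO genes of this stretch. Yet Vamp4 was uneven in normal lung too, at 0.684 to 49.8 CPM. The flanking genes were looked at after the FMO values had been seen, and the contrast is within 1 library and has no replicate.

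**Figure D3:**
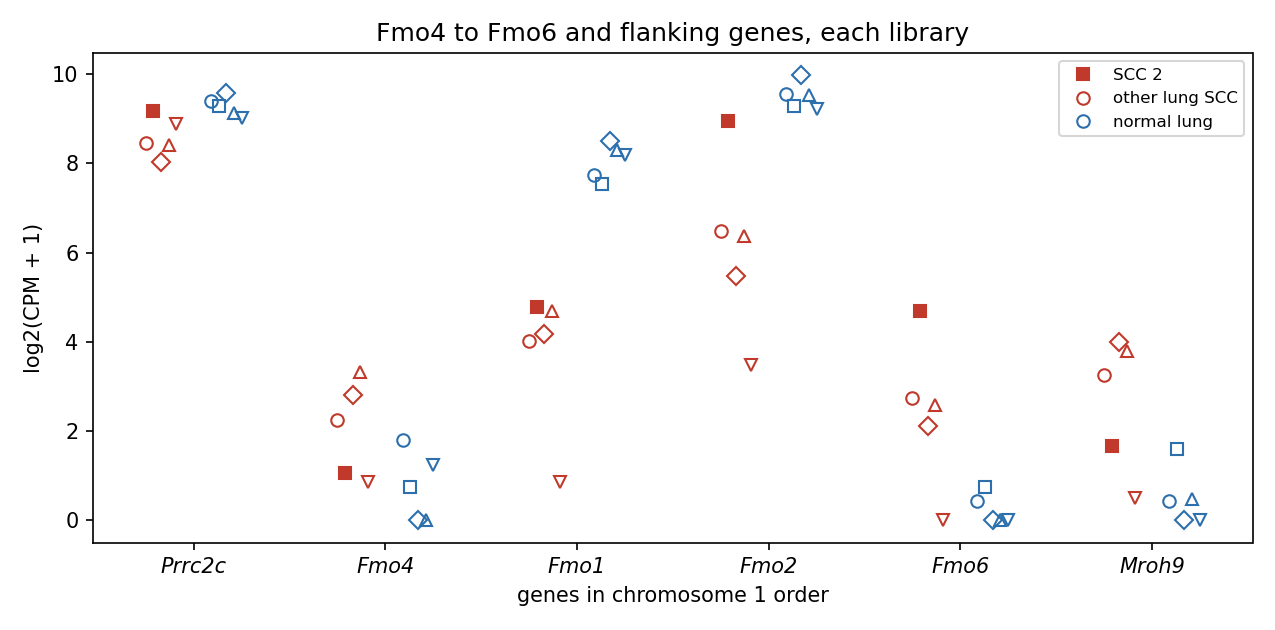
Log2(CPM + 1) of Fmo4, Fmo1, Fmo2, Fmo6 and the flanking genes Prrc2c and Mroh9, in chromosome order, with each library as a point, lung SCC (red, SCC 2 filled) left of normal lung (blue). SCC 2 is the highest SCC library by far for Fmo2 and Fmo6, and for Fmo1 it lies near SCC 1, SCC 3 and SCC 4 while SCC 5 is far lower at 0.817 CPM.

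Genes whose log2(CPM + 1) followed each member most closely over the 10 libraries were found among genes averaging at least 5 CPM. These likenesses mostly carry the difference between the groups, and they share library and depth. Nearest to Fmo1 were Slc9a3r2 (Pearson r = 0.992), Tmem100 (0.982) and Fam174b (0.980). Nearest to Fmo2 were Sort1 (0.983), Wwc1 (0.977) and the surfactant protein gene Sftpd (0.976). By deviations from the group means alone, Agr2, Grb14 and Kdm1b followed Fmo1 (r = 0.978, 0.977 and 0.973). SCC 5 is far below the other SCC libraries in all of these, with 0 CPM of Agr2 and Grb14 and 1.63 CPM of Kdm1b beside 2 counts of Fmo1, so they rest largely on that library. Limch1, Sec14l3 and Sort1 followed Fmo2 (r = 0.982, 0.980 and 0.968). They had 189, 228 and 239 CPM in SCC 2 and 48.2, 69.0 and 51.0 CPM in SCC 5. As for Fmo2, these were the highest and the lowest SCC library, so the likenesses rest largely on SCC 2 and SCC 5.

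Nearest to Fmo5 were Alx4 (r = 0.983), Rasd2 (0.982) and 0610030E20Rik (0.977), and by deviations from the group means 4931406B18Rik, Mylk4 and Six2 (0.969, 0.967 and 0.966). Alx4 and Six2 encode homeobox factors known from skull and kidney development, yet Alx4 averaged 288 CPM in SCC and 695 CPM in normal lung. Their annotated transcripts share a feature with Fmo5. The 3′ UTR of Fmo5 holds an unbroken run of 50 bases that alternate C and T (chr3:97651936-97651985, GRCm38, last exon, starting 112 bases past the coding sequence), and the 6 genes hold runs of alternating C and T or G and A of 41 to 80 bases. This was looked for after the likenesses had been seen. Of the 100 genes most like Fmo5 (r of at least 0.894), 79 had such a run of at least 24 bases in a transcript, against 4.79% of the 14482 genes compared. For the 100 genes most like Fmo1 and Fmo2 the numbers were 3 and 7, and the longest runs in these members were 11 and 9 bases. The shares were not matched for transcript length or number of transcripts, and other kinds of repeat were not compared. Over the 404 genes with a run of at least 40 bases the median r was 0.49 with Fmo5, 0.33 with Fmo1 and 0.21 with Fmo2, and over the 13789 with a run under 24 bases it was -0.24, -0.17 and -0.15.

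The 521 other genes with a run of at least 40 bases were then summed. They took 56589.5, 37671.8, 41460.9, 43942.6 and 48318.8 CPM in SCC 1 to SCC 5, against 77007.7, 101571.3, 45810.3, 102364.7 and 89881.5 CPM in normal 1 to normal 5. Normal 3 was the lowest normal library for this sum and for Fmo5 alike. Of the 379 that were tested, 117 were called lower and 24 higher by edgeR, where 8.68% of all genes were called lower and 12.5% higher, with a median log2 fold change of -0.72, against 0.07 over all genes. Fmo5 counts varied 1.57-fold over the normal libraries, whose totals varied 4.68-fold, while Fmo1 and Fmo2 counts varied 9.06-fold and 7.90-fold. Set against that sum, Fmo5 stood at 3.45, 1.91, 2.03, 3.20 and 2.21 CPM per 1000 CPM of run genes in SCC 1 to SCC 5, and at 3.65, 4.98, 2.98, 3.87 and 5.01 in normal 1 to normal 5. The means were 2.56 ± 0.71 in SCC and 4.10 ± 0.883 in normal lung (SD, n = 5 each), 1.60-fold lower in SCC, and the groups again overlapped. The sum itself averaged 45596.7 CPM in SCC and 83327.1 CPM in normal lung, 1.83-fold lower in SCC. Dividing by it thus made the 2.96-fold difference of Fmo5 smaller by construction. The runs were searched for because of genes that follow Fmo5 in these libraries, so 1.60-fold is not a corrected difference. Gene counts do not show where in the gene reads lay, and the part of the run in the Fmo5 counts was not tested.

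**Figure D4:**
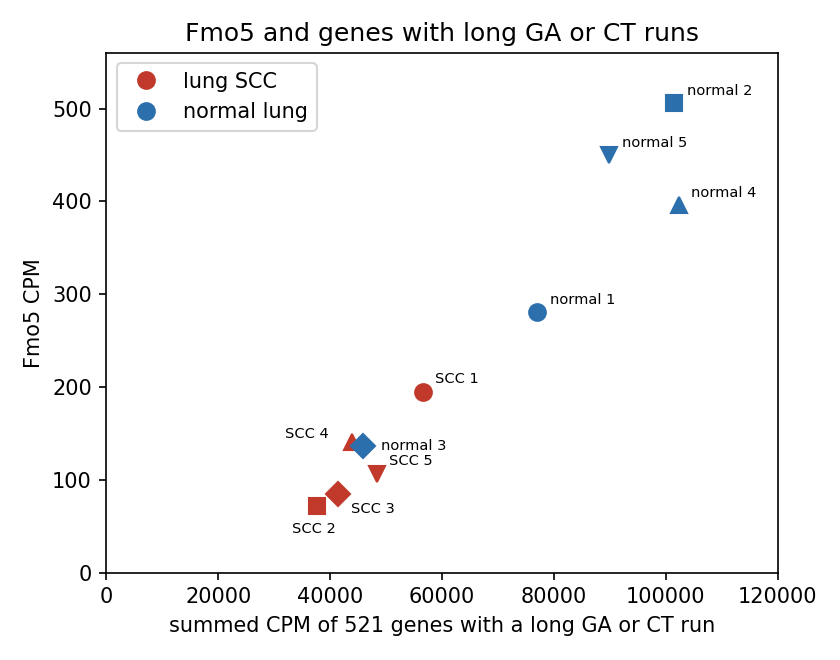
Fmo5 CPM against the summed CPM of 521 other genes whose transcripts hold at least 40 bases of alternating G and A or C and T, 1 point per library, lung SCC in red and normal lung in blue. Fmo5 mostly rises with the sum, from SCC 2 (37671.8 and 72.1 CPM) to normal 2 (101571.3 and 506 CPM), with normal 3 among the SCC libraries. The points scatter, and normal 4 has the largest sum (102364.7 CPM) with 396 CPM of Fmo5.

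Enzymes that feed or resemble FMOs were read against the share of all genes called, 12.5% higher and 8.68% lower. Of 15 genes that supply NADPH and FAD, 1 was called higher and 2 lower in SCC by edgeR, and their median log2 fold change was 0.39, against 0.07 over all genes, so the counts were near the share of all genes. G6pdx, the entry enzyme of the cytosolic pentose phosphate pathway, rose to 102 ± 61.6 CPM in SCC, against 27.1 ± 12.3 CPM in normal lung (SD, n = 5 each, log2 fold change 1.80, edgeR adjusted p = 0.0084). H6pd, the enzyme that makes NADPH inside the endoplasmic reticulum, fell to 67.7 ± 17.6 CPM in SCC, against 209 ± 58.0 CPM in normal lung (log2 fold change -1.74, edgeR adjusted p = 0.000767). Nadk, which makes NADP, was at -1.09 (edgeR adjusted p = 0.0400) and lost its call without SCC 1, SCC 3, SCC 4, normal 1 or normal 4 (adjusted p = 0.0683 to 0.0977).

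Of 19 tested genes of the microsomal cytochrome P450 system, the other monooxygenases of the same membrane, 1 was called higher and 4 lower in SCC, where 12.5% and 8.68% of all genes were, with a median log2 fold change of 0.08. The P450 genes Cyp4b1, Cyp2s1 and Cyp2b10 fell, with log2 fold changes of -2.62, -1.54 and -1.65 (edgeR adjusted p = 0.000931, 0.00558 and 0.00616). Cyp2a5 rose to 241 ± 363 CPM in SCC, against 9.04 ± 6.48 CPM in normal lung (SD, n = 5 each, log2 fold change 4.56, edgeR adjusted p = 0.000327). SCC 2 had 885 CPM of Cyp2a5, against a mean of 80.3 CPM in the other SCC libraries, and 7.95 times their mean of Cyp4b1, the same library that was high for Fmo2. Without SCC 2 the log2 fold change was 2.99 for Cyp2a5 and -3.88 for Cyp4b1.

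Of 11 tested enzymes of amine metabolism, 3 were called higher and 3 lower, where 12.5% and 8.68% of all genes were, with a median log2 fold change of 0.90. Inmt, which methylates indole amines and is itself on the mesenchymal marker list, fell to 22.2 ± 18.1 CPM in SCC, against 497 ± 76.3 CPM in normal lung (SD, n = 5 each, log2 fold change -4.61, edgeR adjusted p = 5.68e-07, and -5.25 without SCC 2). Maob, a mitochondrial amine oxidase, fell (-3.18, edgeR adjusted p = 0.0014), while its relative Maoa rose (1.97, edgeR adjusted p = 0.00537). When SCC 2 and SCC 5 stood for SCC alone, Maoa was at -0.33 (adjusted p = 0.728 in the same edgeR test). The polyamine enzymes Paox and Sat1 were called higher (3.09 and 1.40, edgeR adjusted p = 0.0136 and 0.0167). Hnmt, which inactivates histamine, was called lower (-2.75, edgeR adjusted p = 0.0430), and was at -4.21 without SCC 3, the highest SCC library at 6.06 CPM. The Sat1 call was lost without SCC 2, normal 2, normal 4 or normal 5 (adjusted p = 0.0599 to 0.116), and the Hnmt call without SCC 1, SCC 2, SCC 4 or SCC 5 (adjusted p = 0.0681 to 0.0852). Paox was not among the genes tested after background subtraction. Hnmt was not tested there either, nor without normal 1, normal 3 or normal 4. Of 6 tested genes of taurine synthesis and uptake, the pathway around the hypotaurine substrate of FMO1, 0 were called by edgeR, 0 by DESeq2 and 0 at an unadjusted p under 0.05, and their median was -0.37.

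Summed markers of most normal lung cell types were lower in SCC, as Fmo1, Fmo2 and Fmo5 were, but those of macrophages were not. In bulk regions fewer cells of a type and less RNA per cell cannot be told apart. The summed level of 8 club cell markers was 1667.1 to 6415.8 CPM in SCC and 10819.1 to 15597.1 CPM in normal lung, with 3 of 7 tested called lower and 1 higher. Scgb1a1 alone gave 7387.3 to 11507.6 CPM of the sums in normal lung. Cyp2f2 was not lower, with means of 1725.2 CPM in SCC and 1272.2 CPM in normal lung, and Bpifa1 was higher in most SCC libraries. For 9 alveolar type 2 markers it was 750 to 1289.9 CPM in SCC and 8132.1 to 11584.7 CPM in normal lung, with 9 of 9 lower. For 8 alveolar type 1 markers it was 536 to 1691.0 CPM in SCC and 5019.6 to 6173.6 CPM in normal lung, with 8 of 8 lower. Endothelial markers summed to 363 to 596 CPM in SCC and 4504.5 to 6129.0 CPM in normal lung, with 9 of 9 lower. Mesenchymal markers summed to 695 to 1546.1 CPM in SCC and 4849.6 to 7632.7 CPM in normal lung, with 10 of 11 lower. Macf1 alone gave 305 to 860 CPM of these sums in SCC (695 of 919 CPM in SCC 5) and 2094.5 to 4023.4 CPM in normal lung. Smooth muscle and pericyte markers (6 of 8 lower), ciliated cell markers (3 of 7 lower) and macrophage markers (1 of 7 lower and 1 higher) summed to 331 to 408, 30.2 to 148 and 243 to 398 CPM in SCC, against 839 to 1411.3, 206 to 351 and 220 to 312 CPM in normal lung. Apart from the squamous genes named above, no marker was at 0 in all libraries of a group. SCC 2, the SCC library with the most Fmo2, also had the highest sums of club, alveolar, endothelial, mesenchymal and smooth muscle markers among the SCC libraries. Its club sum was mostly Cyp2f2 (3749.7 CPM) and Bpifa1 (1786.7 CPM, at most 52.8 CPM in normal lung), while Scgb1a1, the main club cell secretory gene, was at 224 CPM in SCC 2, with 488 and 501 CPM in SCC 3 and SCC 4. The smooth muscle sum was 408 CPM in SCC 2, close to 402 CPM in SCC 1, and Notch3 made up 212 CPM of it in SCC 2. Among the SCC libraries, Notch3 and Pdgfrb were highest in SCC 2, while Acta2, Tagln and Cspg4 were lowest there. Of the endothelial markers, Calcrl (321 CPM) and Pecam1 were highest in SCC 2 and Ednrb was lowest. The part of these cell types in the FMO differences was not tested.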

How the data were processed

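Total RNA of laser-captured regions was sequenced from 5 lung SCC and 5 normal lung libraries. The authors deposited whole-number read counts per gene symbol without normalization. The submitters' processing notes name cutadapt 1.9.1, TopHat2 2.0.1, HTSeq 0.6.1, DESeq2 and mm10. Not given in the sources used here are the gene models, strandedness option and handling of multi-mapping reads of the counting step. Totals ran from 1004105 to 6817106 counts, so 3 counts, the limit that a count of 0 allows, equal 0.440 to 2.99 CPM. Such limits cover counting error only.

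CPM used total counts. Genes were tested in R 4.3.3 with edgeR 4.0.16 (filterByExpr, TMM factors, robust quasi-likelihood test, Benjamini-Hochberg adjustment over 13203 genes, call at adjusted p under 0.05). A trial on counts simulated from normal lung means held no receptor background, so it cannot show how the test performs on these SCC libraries. Alternatives tried were upper-quartile factors, size factors of DESeq2, other filters, the DESeq2 1.42.0 Wald test, leaving out each library, SCC 2 and SCC 5 standing for SCC alone, and subtraction of a background proportional to transcript length and to receptor signal, the coding-length density of counts over 1455 receptor genes (each library's values above the 98th percentile set to it). Lengths came from GENCODE M21, which matched 24068 genes, 692 through an older symbol.

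The members, lists and tests were chosen with earlier results of these data known. Named were the members, 5 other FMO genes, up to 3 called genes per direction and list by p, and the 3 genes most like each member by each measure. The search for repeats was added after the likenesses were seen. A gene and a coding sequence are not reported here.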

Additional observations from a re-analysis of the deposited data

Results flagged for a closer look

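Each FMO gene described here with at least 30 counts over the 10 libraries was checked for a library apart from the other 4 of its group, in 16 groups. Chance flags about 1 in 20 groups of normally distributed values, a rate that does not hold for groups of mostly 0 counts. Fmo2 at 492 CPM in SCC 2, with the other SCC libraries at 10.2 to 88.6 CPM, was such a value. In the same library Fmo6 stood at 24.9 CPM (0 to 5.66 CPM in the other SCC libraries). Gm4846 stood at 13.8 CPM in SCC 3 (0 to 3.98 CPM in the other SCC libraries) and at 1.37 CPM, from 2 counts, in normal 5 (0 to 0.147 CPM in the other normal libraries). Fmo9 at 0.147 CPM in normal 3 was 1 count against none in the other normal libraries, a pattern that meets the criterion whatever the size of the count.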

How the results depend on the processing

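Over 17 alternatives each, the log2 fold change stayed negative for Fmo1 (-4.57 to -3.88), Fmo2 (-3.90 to -1.76) and Fmo5 (-2.12 to -1.37). Leaving out 1 library in turn gave -4.51 to -3.88, -3.90 to -2.25 and -1.99 to -1.58. The median log2 fold change of all genes was 0.07, and it was 0.16 with DESeq2 size factors, 0.27 with upper-quartile factors, 0.37 with 1 CPM in 5 libraries and 0.71 with no filter, which tested 22919 genes and called 5470 higher and 2072 lower, against 1645 and 1146. The calls were 3551 and 1146 with 1 CPM in 5 libraries, 1962 and 898 with upper-quartile factors, 949 and 794 after background subtraction and 592 and 738 from SCC 2 and SCC 5. Counts of calls moved as follows. With no filter, Fmo4, Fmo6, Fmo9, Gm4846 and Gm4847 had 2 higher among them, P450 genes 3 higher and 8 lower, amine genes 5 lower and taurine genes 3 higher. With 1 CPM in 5 libraries, P450 and taurine genes had 3 higher each and cofactor genes 1 lower. Cofactor genes had 1 lower with DESeq2 size factors and after background subtraction, and 2 higher and 1 lower with upper-quartile factors. The DESeq2 Wald test called 2 P450 genes higher. When SCC 2 and SCC 5 stood for SCC alone, cofactor genes had 2 higher and 1 lower, P450 genes 2 higher and 2 lower and amine genes 1 higher, Maoa reversed to -0.33, and the calls of Nadk, Cyp4b1 (-1.85), Cyp2b10 (-1.15) and Paox (2.86) were lost. The Nadk call was also lost with DESeq2 size factors, upper-quartile factors, 1 CPM in 5 libraries and background subtraction, the Sat1 call with no filter and the Hnmt call with upper-quartile factors. Leaving out 1 library in turn gave 1 to 2 higher and 1 to 3 lower for cofactor genes, 1 to 3 higher and 3 to 6 lower for P450 genes, 2 to 3 higher and 2 to 4 lower for amine genes, and 0 to 1 higher and 0 to 1 lower for taurine genes. The causes were not tested. No paired analysis was possible because the labels give no replicate number that the groups share. Depth limits Fmo1 in SCC, with 2 to 98 counts a library, and Fmo4, Fmo6, Fmo9, Gm4846 and Gm4847 in both groups.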
